A study of Homo sapiens with 6 samples.

Results

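DEK binding was described at 5 genes of the MYC network, MYC, PVT1, MAX, MXD1 and MNT, in the human myeloid cell line U937. DEK is a chromatin protein, and its binding sites were mapped by chromatin immunoprecipitation followed by sequencing (ChIP-seq), in which crosslinked DNA fragments held by an antibody are sequenced and stretches rich in fragments are called as peaks. The labels list 2 precipitations with a DEK antibody, 2 with an antibody against H3K4me3, a histone mark of active promoters, and 2 samples of input chromatin, all from U937 cells with no treatment named, and the peak lists of the 4 precipitations were analysed. The members were every DEK peak that overlapped the body of one of the 5 genes extended by 10 kb on either side in GENCODE release 44 on GRCh37 (hg19), or, for MYC and PVT1, that lay anywhere in the 500 kb region of chromosome 8 from upstream of MYC to the end of PVT1. They numbered 9 of the 15017 peaks of DEK replicate 1 and 50 of the 152779 peaks of DEK replicate 2. A peak comes with its number of tags (aligned reads in the peak), a score (the negative log10 of its p-value, multiplied by 10) and a fold enrichment over local background, all from the peak caller. Every peak of replicate 1 had a false discovery rate of 100%, whereas the rates of replicate 2 lay between 0.74% and 16.7%. The lists do not give the depth of each library, of which the methods of the study state only a minimum number of reads, and the median peak held 47 tags in replicate 1 and 20 in replicate 2. Tags and scores were therefore ranked within each list, and only the lower of the 2 scores of a shared interval draws on both lists. Of 8 myeloid marker genes, 8 had an H3K4me3 peak within 1 kb of a transcription start site (TSS) in either replicate and 5 in both. None of 3 erythroid, 3 epithelial and 1 liver marker genes had one. Of the lymphoid markers, PAX5 had one in both replicates and CD3E in neither.

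MYC is a transcription factor that drives growth and proliferation, and it binds DNA as a dimer with MAX. The pair recognises the E-box, a short palindromic sequence in many promoters. MXD1 and MNT compete with MYC for MAX and recruit corepressors to the same sites, and MXD1 is known to rise as myeloid cells mature. PVT1 is a long non-coding RNA gene next to MYC that is often gained together with it in cancer.

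The DNA under the strongest partner gene peaks and under 1 of the shared peaks of MAX is shown first, since the E-box is the element through which these proteins act. Each sequence is the 300 bases around the summit, the base with most tags, on the plus strand of GRCh37 (hg19). Capitals mark matches on either strand to the E-box CACGTG, its variant CACGCG, the GC box GGGCGG and the core GAGGAA of the PU.1 site.
MXD1 promoter, replicate 2, chr2:70141238-70141537: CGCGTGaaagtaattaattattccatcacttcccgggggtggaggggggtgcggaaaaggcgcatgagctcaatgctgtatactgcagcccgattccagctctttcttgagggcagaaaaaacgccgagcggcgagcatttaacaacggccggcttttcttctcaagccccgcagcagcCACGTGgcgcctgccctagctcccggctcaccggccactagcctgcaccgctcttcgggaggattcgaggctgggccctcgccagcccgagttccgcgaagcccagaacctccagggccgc
MNT promoter, replicate 2, chr17:2303272-2303571: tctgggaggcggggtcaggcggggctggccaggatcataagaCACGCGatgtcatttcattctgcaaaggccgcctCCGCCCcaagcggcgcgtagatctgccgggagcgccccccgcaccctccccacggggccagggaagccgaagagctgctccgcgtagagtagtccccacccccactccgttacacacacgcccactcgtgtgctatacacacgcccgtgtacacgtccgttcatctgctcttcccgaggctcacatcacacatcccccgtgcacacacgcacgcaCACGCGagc
MAX intron, second shared interval, replicate 2, chr14:65511018-65511317: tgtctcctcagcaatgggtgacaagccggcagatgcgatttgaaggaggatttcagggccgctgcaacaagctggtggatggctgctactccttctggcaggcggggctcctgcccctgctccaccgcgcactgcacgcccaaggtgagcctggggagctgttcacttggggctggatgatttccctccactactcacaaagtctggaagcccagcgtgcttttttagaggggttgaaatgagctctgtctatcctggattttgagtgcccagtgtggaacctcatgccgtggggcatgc
MAX intron, unshared peak, replicate 1, chr14:65521361-65521660: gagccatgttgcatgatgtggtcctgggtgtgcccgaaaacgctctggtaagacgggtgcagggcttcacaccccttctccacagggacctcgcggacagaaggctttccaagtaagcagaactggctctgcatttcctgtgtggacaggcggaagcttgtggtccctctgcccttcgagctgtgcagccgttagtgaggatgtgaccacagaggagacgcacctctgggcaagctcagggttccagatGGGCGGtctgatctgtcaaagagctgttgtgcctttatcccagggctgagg
The window at the MXD1 promoter, with its summit 853 bp upstream of the canonical TSS, held 1 E-box and 1 variant E-box. The window of the MNT promoter peak held 2 variant E-boxes and 1 GC box. It lay inside the gene, with its summit in an intron 932 bp downstream of the canonical TSS. The unshared MAX window held 1 GC box. The shared MAX window held none of the 4 motifs. The summit window of the replicate 1 peak behind the same interval, not shown, held the PU.1 core. In the 4 windows shown all 277 words of 24 bases occurred once on chromosomes 1 to 22, X and Y. The replicate 2 window of the other shared MAX interval is not shown. It had a sequence that recurs throughout the genome, as only 14 of its 277 words of 24 bases occurred once and the median word occurred 3677 times.

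DEK peaks lay in all 4 windows in replicate 2 and in 3 of the 4 in replicate 1, with none at MNT. The MYC and PVT1 region held 6 peaks of replicate 1 and 20 of replicate 2, MAX 2 and 10, MXD1 1 and 9, and MNT 0 and 11. Per 100 kb, replicate 1 had 1.2 peaks in the MYC and PVT1 region, 1.72 at MAX and 1.53 at MXD1, with 0.482 in the genome. In replicate 2 the density was 4 at MYC and PVT1, below the 4.92 of the genome, and it was 8.58 at MAX, 13.8 at MXD1 and 29.7 at MNT. MNT was densest in replicate 2 and empty in replicate 1. The replicate 1 densities at MAX, MXD1 and MNT rest on 2, 1 and 0 peaks, too few to order these windows. The MNT window is also the shortest of the 4. At the 0.482 peaks per 100 kb of the genome, a window of its length would mostly hold 0 replicate 1 peaks. Whether the 2 lists differ in the order of the windows therefore cannot be told from these counts. At MNT the closest replicate 1 peak was 213155 bp away from any of the replicate 2 peaks.

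Where a peak of one list overlapped a peak of the other by at least 1 bp, the overlap was counted as a shared interval. The members held 4 of the 4453 shared intervals of the genome, 1 at MYC, 1 in PVT1 and 2 in MAX. In all, 3 of the 5 genes had a shared interval in the body extended by 10 kb, which was the case for 15.7% of the protein-coding genes and 8.35% of the lncRNA genes. These shares do not account for gene length, which was 392.6 kb for PVT1 and 96.5 kb for MAX. Of the 9 replicate 1 peaks 3 were shared (33.3%, 95% Wilson interval 12.1% to 64.6%), with 27.4% in the whole list. Of the 50 replicate 2 peaks 4 were shared (8%, 3.15% to 18.8%), with 2.90% in the whole list. The share of the whole list lay within the interval in replicate 1 and just under it in replicate 2. Intervals on shares and tag counts cover counting error only, and those on shares treat neighbouring peaks as independent. No test was made, since 2 separately called lists give no spread between replicates. The shared intervals had the lower of their 2 scores between 54.86 and 76.69, and none of them overlapped by 50% or more of both peaks. How many of all shared intervals fall short of 50% is not given here.

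At MYC, both precipitations had a peak over the promoter. MYC (ENSG00000136997, chr8:128747680-128755197, plus strand) has its canonical TSS at 128748477. The replicate 1 peak, chr8:128747403-128748935, held 75 tags (95% Poisson interval 59 to 94) with a score of 111.81, and its enrichment was 4.70-fold. Its score exceeded that of 79.7% of the list, and its summit was 536 bp upstream of the canonical TSS, in the exon of a longer transcript. The replicate 2 peak, chr8:128748176-128748909, held 22 tags (13.8 to 33.3) with a score of 76.69 (above 47.8% of its list), and its enrichment was 3.67-fold. Its summit lay 23 bp upstream of the TSS. The whole replicate 2 peak fell inside the replicate 1 peak, so that the shared interval of 734 bp covered 47.9% of one and 100% of the other, and its middle was 65 bp downstream of the TSS. The lower of its scores exceeded that of 72.9% of all shared intervals.

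The highest scoring replicate 2 peak at any of the 5 genes was not at a promoter but over the second exon of MYC, and it overlapped no replicate 1 peak. This peak, chr8:128749967-128751498, held 82 tags (65.2 to 102) with a score of 725.66, rank 346 of 152779, and its enrichment of 13.83-fold had rank 36. Its summit lay in coding sequence 2690 bp downstream of the TSS. It covered 100% of exon 2 (chr8:128750494-128751265), which holds the start of the main MYC reading frame. The peak also contained an annotated TSS of CASC11, a long non-coding RNA gene on the opposite strand, 66 bp from the summit. Because the 2 genes overlap here, the peak cannot be assigned to one of them. Another unshared peak, chr8:128752357-128753240, had its summit in coding exon 3 with 29 tags, a score of 172.34 and an enrichment of 9.0-fold. It covered 23.4% of the exon. A weaker one, chr8:128749115-128749824, lay in intron 1 of the canonical transcript with 21 tags and a score of 104.96. The nearest replicate 1 peak, that of the promoter, was 180 bp, 1032 bp and 3422 bp away from the intron 1, exon 2 and exon 3 peaks. In replicate 1 exon 1 was covered to 100% and exons 2 and 3 to 0%.

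Summits in coding sequence were found for 7 of the 50 replicate 2 member peaks, 3 in MYC, 3 in the MXD1 window and 1 in MNT, and for 4.10% of the whole list. Of the 3 in MYC, 1 was the promoter peak, with its summit 23 bp upstream of the canonical TSS in coding sequence of another annotated transcript. The others were the exon 2 and exon 3 peaks. H3K4me3 spanned the MYC promoter and all 4 replicate 2 peaks of the gene in 1 broad peak, of 7545 bp in H3K4me3 replicate 1 and 7477 bp in replicate 2. The last replicate 2 peak of the MYC side, chr8:128712911-128713488, lay 35182 bp upstream of MYC within CASC11, held 12 tags and had no H3K4me3. A second H3K4me3 peak, 23453 bp downstream of the MYC TSS in replicate 1 and 23461 bp in replicate 2, had no DEK peak of either list.

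**Figure D1:**
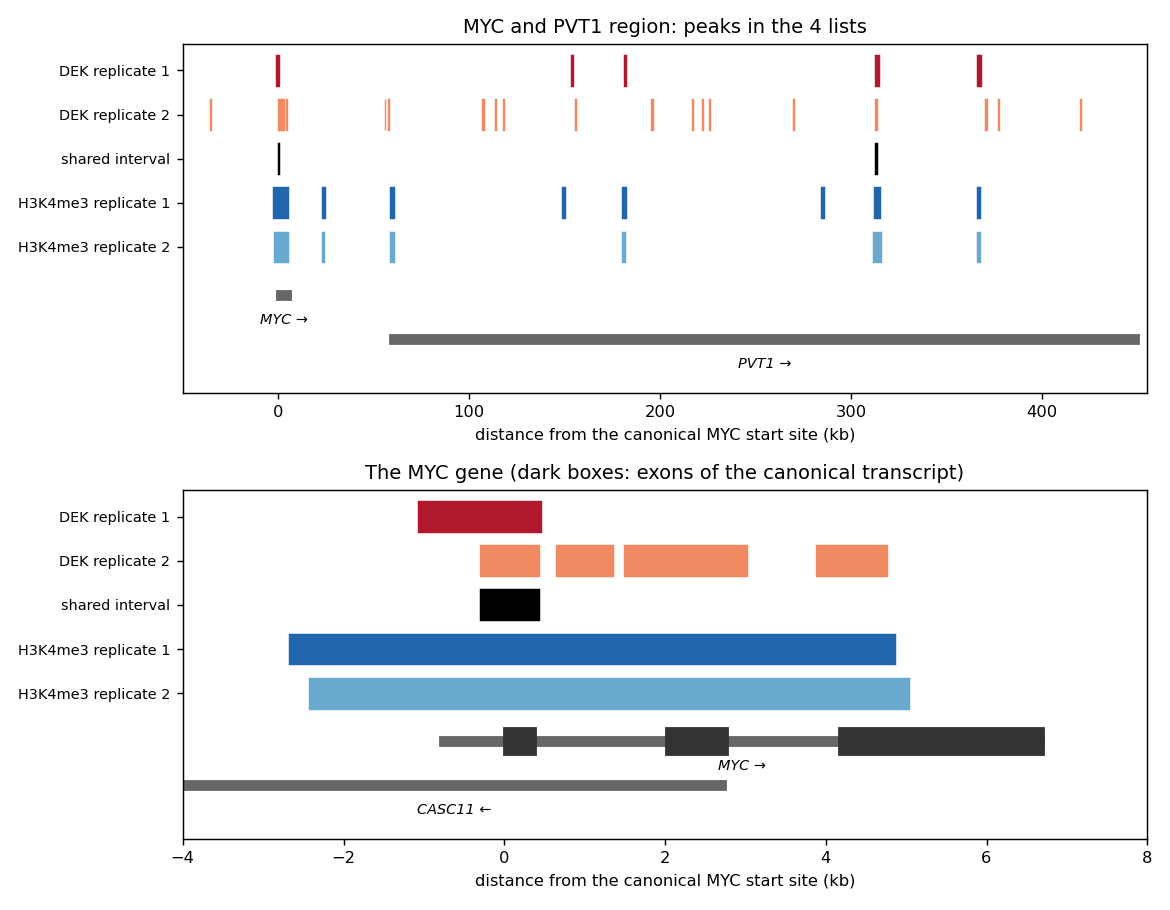
Positions of the peaks of both DEK lists, their shared intervals and both H3K4me3 lists, as distance in kb from the canonical MYC TSS, over the whole MYC and PVT1 region (top) and over MYC itself (bottom). Colored boxes are peaks, grey bars are genes with an arrow for their direction, and the lower panel shows 4 replicate 2 peaks and 1 replicate 1 peak inside a single broad H3K4me3 peak.

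PVT1 had more peaks than MYC, but they were spread over a gene of 392.6 kb (ENSG00000249859, chr8:128806772-129199347, plus strand) and the shared one was far from the canonical TSS at 128806787. Replicate 1 had 5 peaks inside the gene and replicate 2 had 15 in or upstream of it. The highest scoring replicate 1 peak of any member, chr8:129060963-129063032, held 120 tags (99.5 to 143) with a score of 238.83, above 95.6% of its list, and its enrichment was 8.70-fold. It overlapped the replicate 2 peak chr8:129061085-129061970, which held 23 tags (14.6 to 34.5) with a score of 54.86, above 9.74% of its list. By score the site was thus near the top of one list and near the bottom of the other, whereas by tags the replicate 2 peak exceeded 59.1% of its list and by fold 35.3%. The shared interval of 886 bp had its middle 254740 bp downstream of the canonical TSS. It overlapped internal start sites of PVT1, which has 132 distinct annotated start sites, and contained MIR1207, a microRNA gene within PVT1. Both H3K4me3 replicates had a peak over it, of 3546 bp and 3873 bp.

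At the canonical PVT1 promoter only replicate 2 had a peak. It spanned chr8:128805878-128806565, 207 bp from the nearest TSS, and held 22 tags (13.8 to 33.3) with a score of 98.07. It lay just upstream of an H3K4me3 peak that started at 128806728 in one H3K4me3 replicate and 128806773 in the other, and overlapped neither. Farther downstream, replicate 1 had a pair of adjacent peaks 308239 and 309050 bp from the TSS with 42 tags each and scores of 81.74 and 130.27. Both overlapped H3K4me3 in both replicates, and the nearest replicate 2 peak was 3129 bp and 2262 bp away. A replicate 1 peak of 54 tags and a score of 87.10, 123123 bp downstream of the TSS, also overlapped H3K4me3 in both, with the nearest replicate 2 peak 13261 bp away. The last replicate 1 peak, of 37 tags and a score of 78.23 at 95687 bp, had no H3K4me3 and was 978 bp from the closest replicate 2 peak. The 15 replicate 2 peaks of PVT1 held 12 to 26 tags with scores of 54.86 to 98.07, and 1 of them, the shared one, overlapped H3K4me3.

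The region was then placed among all 6168 windows of 500 kb on chromosomes 1 to 22, X and Y. It held 2 shared intervals, and 17.4% of the windows held at least as many, with a median of 0. At least as many replicate 1 peaks, 6, were found in 14.1% of the windows and at least as many replicate 2 peaks, 20, in 42.2%. Its 8 peaks of H3K4me3 replicate 1 were reached by 39.8% of the windows. The region was thus above the median window in each of these counts, with medians of 1, 15 and 5, and was far from the highest counts of 16 shared intervals, 27 replicate 1 peaks and 190 replicate 2 peaks. Its density of replicate 2 peaks was nevertheless below that of the genome, at 4 against 4.92 per 100 kb.

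**Figure D2:**
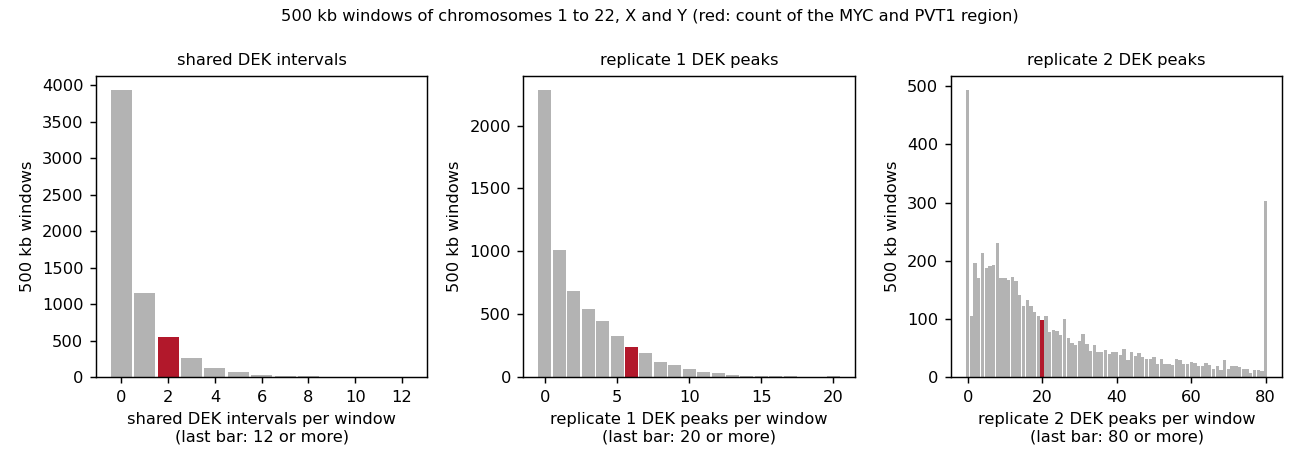
Number of 500 kb windows (vertical axis) by the shared DEK intervals, replicate 1 peaks and replicate 2 peaks they hold (horizontal axes, the last bar pooling higher counts). Red bars mark the counts of the MYC and PVT1 region, 2, 6 and 20, which lie to the right of the medians of 0, 1 and 15.

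MAX, the common dimerization partner, had H3K4me3 but no DEK peak at its own promoter. MAX (ENSG00000125952, chr14:65472892-65569413, minus strand) has its canonical TSS at 65569235, and H3K4me3 replicate 1 had a peak of 3762 bp around it. The nearest DEK peak, in replicate 2 at chr14:65577174-65577980, lay 7761 bp upstream of a MAX TSS with 25 tags and a score of 65.23. Both shared intervals were in an intron near 58 kb downstream. They came from 1 broad replicate 1 peak, chr14:65508870-65512028, with 169 tags (144 to 196), more than any other member peak of its list, yet a score of 73.64 (above 56.3% of the list). The replicate 2 peaks were chr14:65510207-65510650 with 19 tags and a score of 56.96, and chr14:65510872-65511646 with 23 tags and a score of 67.93. The first is the site of recurring sequence, and the other was unique. H3K4me3 covered both in both replicates. This intron of MAX also lies in FNTB and the readthrough gene CHURC1-FNTB on the opposite strand and holds MIR4706, so that the sites cannot be told apart as belonging to MAX or to these genes.

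The other replicate 1 peak of MAX, chr14:65520686-65522711, held 147 tags (124 to 173) with a score of 120.08, above 82.2% of the list. It overlapped H3K4me3 in replicate 1 only, and a replicate 2 peak lay 1957 bp away. That replicate 2 peak, with 31 tags and a score of 116.27, was the highest scoring of the 10 in MAX, and 76.7% of the list had fewer tags. Its summit window was largely of recurring sequence, as 24.9% of its words of 24 bases occurred once. The largest by tags, chr14:65542153-65543722, held 49 tags with a score of 75.68 over an exon and overlapped H3K4me3 replicate 1. The 2 lists thus met in the MAX intron but their highest scoring peaks there did not overlap.

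The MAX competitors MXD1 and MNT both had a replicate 2 peak of high score on the promoter, neither of which was found in replicate 1. At MXD1 (ENSG00000059728, chr2:70124820-70170077, plus strand, canonical TSS at 70142241) the peak chr2:70140646-70143083 held 107 tags (87.7 to 129), the highest tag count of the 50, with a score of 171.32, above 92.8% of the list. Its fold enrichment of 2.81 exceeded only 3.57% of the list, so that the peak was high in tags and low in fold. H3K4me3 covered it in both replicates. The remaining 8 peaks held 13 to 51 tags. The replicate 1 peak in the window, chr2:70129345-70130363, held 64 tags (49.3 to 81.7) with a score of 59.67, above 32.9% of the list. It was 12230 bp upstream of the canonical TSS, in the splicing factor gene SNRNP27 and in an intron of a longer MXD1 transcript, and it overlapped H3K4me3 in both replicates. The nearest replicate 2 peak was 2465 bp away.

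At MNT (ENSG00000070444, chr17:2287367-2304398, minus strand, canonical TSS at 2304354) the promoter peak chr17:2303053-2305110 held 59 tags (44.9 to 76.1) with a score of 217.09, above 96.3% of the list, and a fold enrichment of 3.85, above 26.4%. Its summit lay in an intron 932 bp downstream of the canonical TSS. The promoter peak overlapped H3K4me3 in both replicates, as did the peaks chr17:2305528-2306205 (19 tags, score 75.58), chr17:2296314-2297168 (26 tags, 107.49) and chr17:2299072-2300251 (26 tags, 74.61). The other 7 replicate 2 peaks had no H3K4me3. Of these, 2 lay in METTL16, an RNA methyltransferase gene upstream, the stronger with 34 tags and a score of 148.47, and 3 lay in SGSM2, downstream. The remaining 2 lay in MNT. The summit window of the stronger METTL16 peak was largely of recurring sequence, as 18.1% of its words of 24 bases occurred once.

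**Figure D3:**
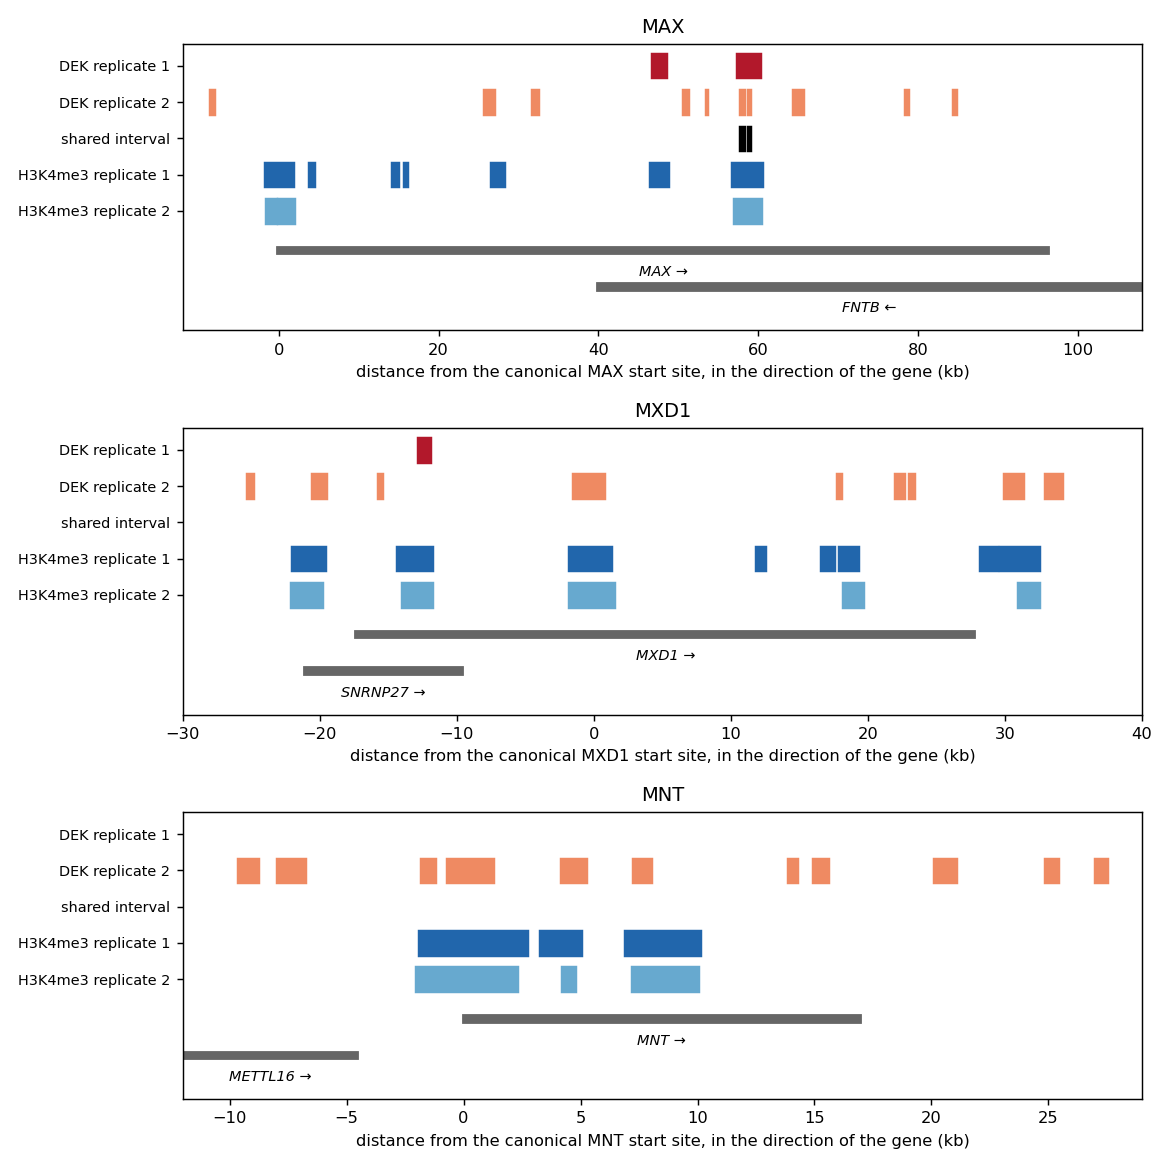
Peaks of both DEK lists, shared intervals and peaks of both H3K4me3 lists at MAX, MXD1 and MNT, as distance in kb from the canonical TSS of each gene in its direction of transcription. Shared intervals are present only in the MAX panel, near 58 kb, whereas the MXD1 and MNT promoters carry a replicate 2 peak and H3K4me3 without a replicate 1 peak.

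**Figure D4:**
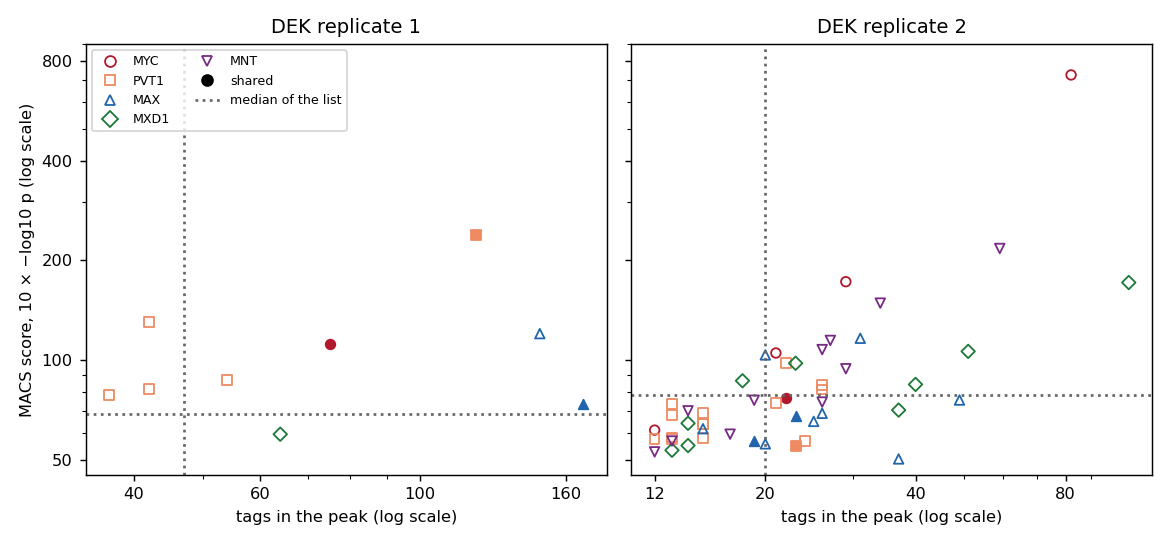
Score against tags, both on log axes, for the 9 replicate 1 and 50 replicate 2 member peaks, by gene. Filled symbols are shared peaks and dotted lines are the medians of each list, and the highest point of the right panel is the unshared MYC exon 2 peak with 82 tags and a score of 725.66.

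Each gene was then classified by the lists that had a peak within 1 kb of any of its annotated start sites. Over all protein-coding genes, 10.2% had a DEK peak there in replicate 1, 62.4% in replicate 2, 61.9% an H3K4me3 peak in replicate 1 and 58.8% in replicate 2. Among the 5 members the counts were 2, 4, 5 and 5. A shared interval was there for 2 of the 5, MYC and PVT1, while 5.02% of the protein-coding and 2.25% of the lncRNA genes had one, and for PVT1 it was at an internal start site. These shares do not account for the number of start sites of a gene, which was 132 for PVT1. MYC and PVT1 had all 4 kinds of peak, a pattern seen in 1474 of 20163 protein-coding genes (7.31%). For PVT1, a lncRNA gene, all 4 met at an internal start site, and the share of lncRNA genes with this pattern is not given here. MXD1 and MNT had every kind but the DEK peak of replicate 1, the pattern of 37.8%. MAX had H3K4me3 alone, as did 11.6%.

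Genes related to these by function showed mixed patterns. In the MAX and MLX dimerization network, 1 of 9 genes had a shared interval at a TSS, where 5.02% of all protein-coding genes had one. It was MXD3, another MAX partner of the MXD family, with scores of 72.58 and 190.37 in the 2 replicates. MXI1, MXD4, MGA, MLX and MLXIP had the pattern of MXD1 and MNT, and MYCL that of MAX. MYCN and MLXIPL had a replicate 2 peak with no H3K4me3. Of 15 cofactors, 15 had a replicate 2 peak (62.4% of all protein-coding genes) and 15 had H3K4me3 in each replicate. A shared interval was at a TSS of 1 of the 15 (6.67%), near the 5.02% of all protein-coding genes. It was NCOR1, a nuclear receptor corepressor, with scores of 52.93 and 382.36. HDAC2, a histone deacetylase, had peaks of both lists near its start sites that did not meet.

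Among 10 regulators of MYC level, 4 had a shared interval at a TSS, with 5.02% of all protein-coding genes. They were the deubiquitinase USP28 (scores 75.71 and 136.83), the ubiquitin ligase HUWE1 (137.22 and 57.55), the kinase GSK3B (70.87 and 94.32) and the kinase PIM1 (56.29 and 281.20). Of 20 canonical MYC targets 2 had one, the translation initiation factor EIF4E (69.77 and 75.58) and the transferrin receptor TFRC (65.02 and 100.25). In all, 8 of the 54 genes (14.8%) had a shared interval at a TSS, with 5.02% of all protein-coding genes, and 49 had a replicate 2 peak, with 62.4%. The genes of these lists were selected with earlier results of these data known, and most of them carry H3K4me3, 51 of 54 in each replicate, so the shares were not set against chance.

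**Figure D5:**
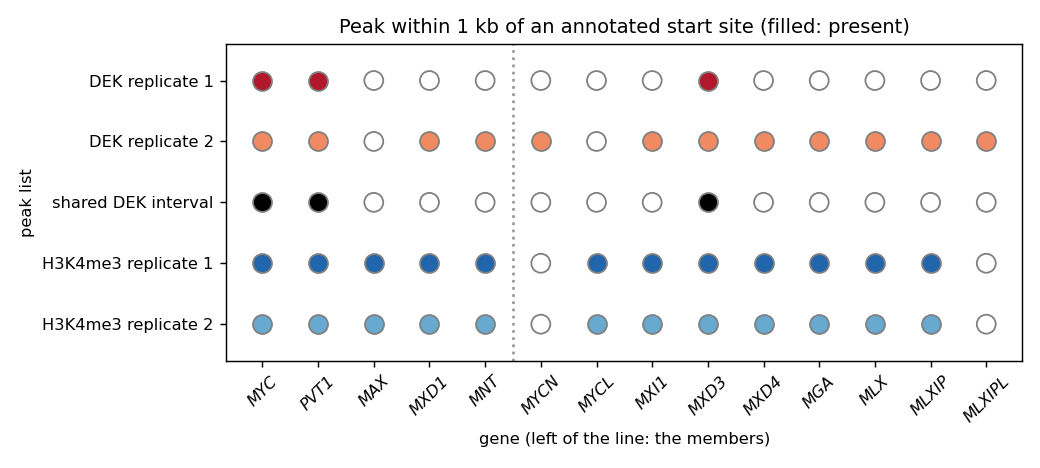
Presence (filled) or absence (open) of a peak within 1 kb of an annotated TSS for the 5 members and the 9 genes of the MAX and MLX dimerization network (horizontal axis), for each list and for shared DEK intervals (vertical axis). MYC, PVT1 and MXD3 are filled in every row, whereas MAX and MYCL show H3K4me3 without DEK.

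DEK member peaks lay on H3K4me3 more often in replicate 1 than in replicate 2, as did the peaks of the whole lists. In replicate 1, 8 of 9 overlapped an H3K4me3 peak of either replicate (88.9%, 95% Wilson interval 56.5% to 98%), with 51.3% of the whole list and 52.8% of the peaks in the protein-coding gene bodies extended by 10 kb. In replicate 2 it was 16 of 50 (32%, 20.8% to 45.8%), with 11.0% of the whole list and 12.7% in the gene bodies. Both background shares lay below the intervals, but the intervals treat peaks as independent. In replicate 2, 4 of the 16 lay on 1 broad H3K4me3 peak at MYC. The windows were also drawn around 5 genes that all carry H3K4me3 at a TSS, and the difference from the background was not tested. The exception in replicate 1 was the PVT1 peak of 37 tags. Seen from the other side, 7 of 26 peaks of H3K4me3 replicate 1 in the windows carried a replicate 1 DEK peak and 11 a replicate 2 peak, with 15.8% and 28.5% over the genome. The H3K4me3 peaks without DEK included those at the promoters of MAX and of PVT1.

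The member peaks also differed in how often their sequence recurs in the genome. Among the 50 replicate 2 windows of 300 bases, 19 had fewer than 50% unique words of 24 bases, namely 8 of 15 at PVT1, 6 of 10 at MAX, 3 of 9 at MXD1, 2 of 11 at MNT and 0 of 5 at MYC. Of 1 window in 50 across the whole list, 56.4% were of this kind. In replicate 1 it was 0 of the 9 member windows, and 28.7% of 1 window in 5 across the list. The 4 MYC gene peaks of replicate 2, the exon 2 peak included, were fully unique, and so were the promoter peaks of MXD1 and MNT. The methods of the study describe paired-end reads longer than these words, so the shares do not measure whether reads could be placed. Whether recurring sequence contributed to the calls was not tested.

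The E-box was found in 1 of 9 replicate 1 member windows, the shared PVT1 peak, and in 6 of 50 of replicate 2, whereas 4.95% and 5.05% of all windows held it. The replicate 2 windows were 2 in PVT1, 2 near MNT, 1 near MAX and 1 at the MXD1 promoter. Those near MNT lay outside it, in SGSM2 and METTL16, and that near MAX lay 8546 bp upstream of its canonical TSS. Words of 24 bases that occurred once made up 5.78% of 1 of the PVT1 windows. They made up 18.1% of the METTL16 window, 32.5% of the MAX window and 100% of the others. No window at MYC held one. The variant E-box was in 1 of 9 and 3 of 50 (2.65% and 4.33% of all), the GC box in 2 of 9 and 14 of 50 (11.9% and 22.7%), and the PU.1 core in 5 of 9 and 10 of 50 (34% and 14.2%). In RefSeq promoters of 300 bases (GRCh38.p14), the 4 motifs were present in 7.26%, 11.4%, 45% and 27.9%. The median GC content of the member windows was 51.7% in replicate 1 and 56.7% in replicate 2, with 48.7% and 54% in the lists.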

How the data were processed

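DEK and H3K4me3 were precipitated from U937 cells, with 2 samples each and 2 input samples (no input file used here). Per the labels, the authors aligned reads to hg19 with Bowtie2 and called peaks with MACS 1.4.1, which the methods describe as run on each DEK precipitation at default parameters. The deposited DEK lists give a tag count, not normalized, a score (the negative log10 of a p-value, multiplied by 10), a fold enrichment ratio and a false discovery rate in percent. The H3K4me3 lists hold positions only, and their peak calling settings are not given in the sources used here. Overlaps of at least 1 bp, distances and shares were computed with Python 3.11.15, NumPy 2.4.6, pandas 2.3.3 and SciPy 1.17.1, and the overlap code was tested on simulated data. Presence at a TSS was read from the nearest base of a peak to any annotated TSS of the gene, and positions within a gene from the summit of a peak, or the middle of a shared interval or H3K4me3 peak, to the canonical TSS unless stated. Motifs and 24-base words were counted in 300 bases around each summit, the words as a measure chosen after seeing the data. One marker gene and 1 window sequence are not reported here. All members were named, and of the other lists the genes with a shared interval at a TSS. The members and lists were chosen with earlier results of these data known. Alternatives were a 50% overlap, a score of at least 100, lists of equal length, gene bodies alone, 2 kb and each replicate alone.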

Additional observations from a re-analysis of the deposited data

How the results depend on the processing

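The 4 shared intervals fell to 0 when 50% of each peak had to overlap, to 0 when both scores had to reach 100, and to 0 with replicate 2 reduced to as many peaks as replicate 1. Gene bodies alone gave 4. The shares of all shared intervals kept under these settings are not given here, so the fall to 0 does not set the members apart. The highest lower score of the 4, 76.69 at MYC, exceeded that of 72.9% of all shared intervals. The member peaks went from 9 to 4 (replicate 1) and from 50 to 11 (replicate 2) with a score of at least 100, and to 4 with replicate 2 reduced to the length of replicate 1, each of which removes peaks by construction. The members with a shared interval at a TSS, 2, ranged from 2 to 4 when either DEK replicate was left out and single peaks counted. For the 54 list genes the 8 became 0 when both scores had to reach 100, and 9 to 49 without a replicate. The share of 500 kb windows went from 17.4% to 100% with the 50% overlap and to 100% with the score limit, because the region then held 0 shared intervals. The H3K4me3 overlaps stayed at 7 to 8 and 15 to 16. Distances from the middle of an interval, an alternative chosen after seeing the data, gave the same 2 and 8. No paired analysis was possible because no result comes from a test. The depth of each library is not in the lists, so an absent peak, as at MNT in replicate 1, does not show absent binding.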
